A study of Mus musculus with 20 samples.

Results

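The 39 genes described here are interferon-stimulated genes of the mouse, a set of genes that cells switch on after they sense an interferon. They were taken by gene name from the single-cell RNA-seq tables of macrophages grown in culture and of cells sorted from tumors. All 39 were listed among the 15855 genes of the culture table and among the 15333 genes of the tumor table. By their known roles they comprised 14 antiviral effectors (the Ifit genes, Isg15 with Usp18 and Herc6, Rsad2 with Cmpk2, Mx1, Xaf1, Ifi44, Rtp4, Bst2 and Ifitm3), 5 oligoadenylate synthetases, 5 sensors of nucleic acids, 3 transcription factors, 7 GTPases and 5 other genes.

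The study asked whether B-cell precursors can turn into macrophage-like cells in cancer. B-MF are macrophage-like cells that grew out of sorted bone marrow (BM) B cells kept in medium conditioned by 4T1.2 cells, a mouse breast cancer line, and Mo-MF are macrophages grown from monocytes in the same medium. TAM are F4/80+ CD11b+ cells sorted from 4T1.2 tumors under the skin of BALB/cJ mice. ATAC-seq, which maps open chromatin, was run on CSF1R+ and CSF1R- B-cell precursors from the BM and spleen of naive mice, although the labels call these cells macrophages. The mice were young adult females, and no gene was deleted in any of these groups. The study's methods name C57BL/CJ or BALB/CJ mice as donors of the cultured B cells. The sources used here do not say which strain gave the B-MF and Mo-MF libraries. There were 2 libraries of B-MF, 2 of Mo-MF, 4 of TAM and 3 of each of the 4 ATAC-seq groups. Nothing says that the culture libraries came from separate animals, so p-values measure only the spread between these libraries, which may be technical. The 4 TAM libraries are numbered 2 to 5 in the deposited table and 1 to 4 in the labels, so they are called by the numbers of the table.

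Type I interferons bind the receptor made of IFNAR1 and IFNAR2, and the kinases on that receptor phosphorylate STAT2, which acts with IRF9 at a DNA element named the interferon-stimulated response element (ISRE). Interferon gamma binds another receptor and acts mainly through the gamma-activated site (GAS), a DNA element that drives many guanylate-binding proteins (GBP) and immunity-related GTPases. In macrophages these programs equip the cell against viruses and intracellular bacteria, and IRF7 feeds back to raise type I interferon production further.

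There were 20798 cells in the culture table and 10885 cells from tumors. The deposited values turned back into whole corrected counts per cell, with a median of 18350 to 19469 counts per cell in the culture libraries and 7651 to 8266 in the TAM libraries. The 2 tables were normalized separately, so levels were compared within a table only. In Mo-MF, 9.86% and 8.28% of cells carried at least 100 corrected counts of S100a8 plus S100a9, alarmins that neutrophils hold in large amounts, against 3 and 0 cells in B-MF. Such cells, called S100-high below, made up 44.7% to 67.7% of the TAM libraries, and more than 50% of the cells in 3 of the 4. Leaving out S100a8 and S100a9, which chose these cells, 6 other neutrophil markers summed to 44.9 to 68.8 counts per cell in the S100-high cells of TAM and 1.41 to 3.49 in the other cells, so the macrophage label does not cover all sorted cells. Mitochondrial counts were 7.70% to 7.92% in B-MF and 5.07% to 5.24% in Mo-MF. Doublets were not removed, and libraries shared 0 to 14 cell barcodes in a pair.

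Promoters of 10 members are printed here in part, because they hold the element that interferon signalling acts on and belong to genes whose levels are described below. They were read from the RefSeq promoter table of GRCm38.p6, which had an entry for 32 of the 39 members. Each is written 5′ to 3′ on the strand of its gene, and capitals mark the ISRE core, searched as GAAA, any 2 bases and GAAA, in either orientation, with overlapping matches joined.
Isg15 (chr4:156200863-156200908, minus strand): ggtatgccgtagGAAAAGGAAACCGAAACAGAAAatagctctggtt
Ifit1 (chr19:34640773-34640825, plus strand): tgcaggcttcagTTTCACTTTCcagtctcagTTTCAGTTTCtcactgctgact
Ifit3 (chr19:34583361-34583428, plus strand): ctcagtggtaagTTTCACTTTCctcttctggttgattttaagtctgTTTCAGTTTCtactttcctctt
Rsad2 (chr12:26456551-26456584, minus strand): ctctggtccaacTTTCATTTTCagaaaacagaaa
Oas3 (chr5:120777713-120777746, minus strand): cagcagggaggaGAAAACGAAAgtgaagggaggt
Irgm1 (chr11:48871423-48871462, minus strand): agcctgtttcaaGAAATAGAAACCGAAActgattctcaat
Gbp2 (chr3:142620592-142620625, plus strand): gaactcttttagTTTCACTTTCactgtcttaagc
Gbp5 (chr3:142496757-142496790, plus strand): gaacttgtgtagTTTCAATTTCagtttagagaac
Gbp7 (chr3:142530271-142530304, plus strand): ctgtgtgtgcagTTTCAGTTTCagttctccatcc
Igtp (chr11:58199510-58199543, plus strand): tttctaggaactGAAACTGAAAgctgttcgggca

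The first match began 30 bases before the RefSeq start site in Irgm1, 34 in Igtp, 53 in Gbp7, 59 in Gbp2, 75 in Oas3, 78 in Isg15, 104 in Ifit1, 120 in Rsad2, 156 in Ifit3 and 165 in Gbp5. In windows from 250 bases before to 50 after the start, searched on both strands, 21 of the 32 members with an entry held the core. Counted by window, since a gene can have more than 1, this was 23 of 38 windows (60.5%), against 3.44% of all 32851 promoter windows. The core was not found in the windows of the other 11, among them Irf7 and Oasl1. The GAS core, searched as TTC, any 3 bases and GAA, which reads the same on both strands, was found in 7 of the 32 members and 18.4% of their windows, against 8.3% of all windows. A match is a run of letters and does not show that a factor binds there. Several members lie side by side in the genome (mm10). Ifit2, Ifit3 and Ifit1 run from 34550694 to 34650009 on chromosome 19, and Gbp5, Gbp7, Gbp3 and Gbp2 run from 142493978 to 142638008 on chromosome 3. Genes within such a family resemble each other, so reads could have been assigned to the wrong copy, which also holds for Ifi203 and Ifi204, the Oas genes, Trim30a and the Slfn genes.

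B-MF and Mo-MF, grown from different cells of origin in the same medium, were compared. The effect of origin alone was not tested, since donor strain is not stated and the cultures also differed in marker levels. Interferon-stimulated genes were lower in B-MF across most of the set, and this held for antiviral effectors, oligoadenylate synthetases, sensors and transcription factors, with differences of up to 2.77-fold. A single member, Gbp7, was higher in B-MF. Levels are mean corrected counts per cell in a library, differences are log2(mean + 0.1) of B-MF minus Mo-MF, and calls are limma's moderated test over all tested genes at a Benjamini-Hochberg adjusted p under 0.05. Of the 38 members that passed the filter on low values, 32 were lower, 1 was higher and 5 were not called, beside 16.9% lower and 22.6% higher among all 8633 genes tested. Their median difference was -0.60, against 0.02 over all tested genes. Without the S100-high cells, 33 were lower and 1 was higher (17% and 21% of 8602 genes), with a median of -0.60 against 0.01. Only Gbp5, a guanylate-binding protein that promotes inflammasome assembly, was under the filter, with 0.0745 and 0.0672 counts per cell in B-MF versus 0.0437 and 0.0375 in Mo-MF.

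**Figure D1:**
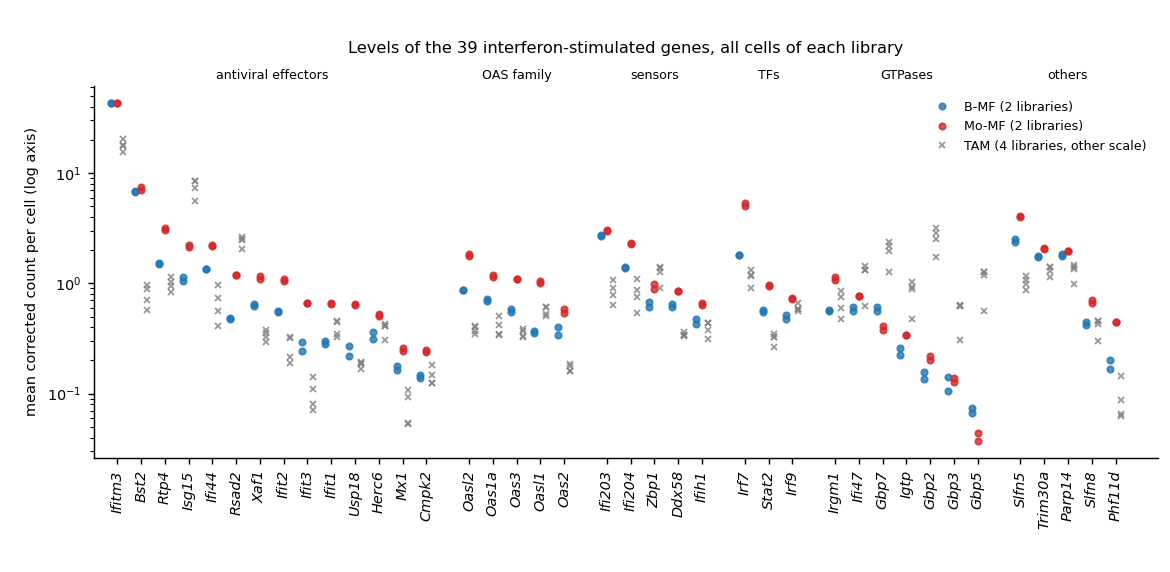
Mean corrected counts per cell (log axis) of each of the 39 interferon-stimulated genes in the 2 B-MF, 2 Mo-MF and 4 TAM libraries, where the TAM values (crosses) come from a separately normalized table. Most members, among them Irf7 and Rtp4, lie higher in both Mo-MF libraries than in both B-MF libraries, whereas Gbp7 lies lower.

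Irf7, the transcription factor that amplifies type I interferon production, separated the 2 macrophage types furthest. Its level was 1.79 and 1.83 counts per cell in B-MF, compared with 5.33 and 5.05 for Mo-MF. The Mo-MF libraries were thus both far above the B-MF libraries, and replicates lay close together. The difference was -1.47 (SE 0.053, adjusted p = 4.02e-07, limma), and it was -1.48 without S100-high cells. A count of Irf7 was seen in 65.0% and 68.2% of B-MF and in 96.5% and 96.0% of Mo-MF. Stat2 and Irf9, partners in the complex that binds the ISRE, were lower in B-MF as well. Stat2 stood at 0.574 and 0.554 in B-MF against 0.963 and 0.953 in Mo-MF, a difference of -0.67 (SE 0.050, adjusted p = 2.21e-05). Irf9 stood at 0.512 and 0.472 against 0.744 and 0.725, a difference of -0.50 (SE 0.055, adjusted p = 2.34e-04).

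Of the 14 antiviral effectors 12 were lower in B-MF, none was higher, and their median difference was -0.78. Ifit1, which binds viral RNA that lacks the cap methylation of the host, had 0.282 and 0.298 counts per cell in B-MF versus 0.660 and 0.644 in Mo-MF. Ifit3, its partner, had 0.293 and 0.244 in B-MF against 0.667 and 0.660. Both genes were far higher in Mo-MF in every library, with no overlap between the groups. The difference was -0.95 for Ifit1 (SE 0.051, adjusted p = 3.85e-06) and -1.05 for Ifit3 (SE 0.069, adjusted p = 1.05e-05). Without S100-high cells it was -0.78 for Ifit1 and -1.05 for Ifit3. Rsad2 encodes viperin, an enzyme that makes a chain-terminating nucleotide. It had 0.483 and 0.476 counts per cell in B-MF versus 1.18 and 1.20 in Mo-MF, a difference of -1.16 (SE 0.049, adjusted p = 9.00e-07).

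Isg15, a ubiquitin-like protein that is attached to other proteins during the interferon response, had 1.14 and 1.06 counts per cell in B-MF versus 2.22 and 2.12 in Mo-MF. The groups did not overlap, and the difference was -0.92 (SE 0.057, adjusted p = 8.06e-06). Within Mo-MF the S100-high cells held 5.52 and 5.67 counts of Isg15 per cell and the other cells 1.86 and 1.80. Left without the S100-high cells, Isg15 still differed by -0.68 (SE 0.056, adjusted p = 5.96e-05). Usp18, the protease that removes ISG15 and also damps the type I receptor, had 0.271 and 0.220 in B-MF against 0.651 and 0.637 in Mo-MF. Usp18 was therefore lower in both B-MF libraries, by -1.11 (SE 0.073, adjusted p = 1.07e-05).

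Rtp4, named as a receptor transporter and induced by type I interferon, had 1.54 and 1.51 counts per cell in B-MF versus 3.16 and 3.03 in Mo-MF, a difference of -0.97 (SE 0.051, adjusted p = 3.20e-06). In Mo-MF, Rtp4 was also higher in the S100-high cells (5.76 and 5.29) than in the others (2.88 and 2.83), and without the former the difference was -0.86. The effectors that were not called were Bst2 and Ifitm3. Bst2, which encodes tetherin, a tether that holds budding virus on the cell, had 6.90 and 6.67 in B-MF versus 7.56 and 7.06 in Mo-MF, a difference of -0.11 (adjusted p = 0.175). Ifitm3, which blocks the entry of viruses through endosomes, had 43.5 and 43.3 in B-MF versus 42.9 and 43.1 in Mo-MF, a difference of 0.01 (adjusted p = 0.858). Libraries of the 2 groups did not overlap for either gene, but the gaps were small.

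All 5 oligoadenylate synthetase genes were lower in B-MF, with a median difference of -0.85. Oas1a, Oas2 and Oas3 encode enzymes that make the second messenger of RNase L when they meet double-stranded RNA, and the like proteins of Oasl1 and Oasl2 carry ubiquitin-like domains. Oasl1, known to restrain translation of Irf7, had 0.371 and 0.354 counts per cell in B-MF versus 1.05 and 1.01 in Mo-MF. Oasl2 had 0.868 and 0.869 in B-MF versus 1.84 and 1.79 in Mo-MF. Both were well separated between the groups, by -1.29 for Oasl1 (SE 0.052, adjusted p = 6.85e-07) and -0.98 for Oasl2 (SE 0.050, adjusted p = 2.59e-06). Oas3, whose promoter stretch is printed above, differed by -0.85, Oas1a by -0.65 and Oas2 by -0.49.

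Of the 5 sensors 4 were lower in B-MF, with a median difference of -0.45. Ddx58, which encodes the RNA helicase RIG-I, had 0.646 and 0.615 counts per cell in B-MF versus 0.859 and 0.855 in Mo-MF, and differed by -0.39 (SE 0.051, adjusted p = 5.69e-04). Ifih1, which encodes the RNA helicase MDA5, differed by -0.45, and Zbp1, a sensor of Z-form nucleic acid that can trigger necroptosis, by -0.48. Ifi204, a DNA sensor, had 1.42 and 1.39 in B-MF versus 2.32 and 2.28 in Mo-MF, and differed by -0.68 (SE 0.050, adjusted p = 2.03e-05). Its neighbor Ifi203 had 2.71 and 2.76 against 2.99 and 3.03, a difference of -0.13 (adjusted p = 0.0659). With S100-high cells left out Ifi203 was called lower, by -0.18 (SE 0.048, adjusted p = 0.0236), a call that was lost when either Mo-MF library was left out.

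The GTPases, many of which are classical targets of interferon gamma, were the group with the smallest median difference (-0.34), and 4 of the 6 tested were lower in B-MF. Irgm1, an immunity-related GTPase that acts in autophagy and in defense against mycobacteria, had 0.580 and 0.561 counts per cell in B-MF versus 1.13 and 1.08 in Mo-MF. It was lower in B-MF by -0.85 (SE 0.052, adjusted p = 7.54e-06), the largest difference among the GTPases tested. Gbp2, a guanylate-binding protein that coats vacuoles of pathogens, had 0.156 and 0.135 against 0.218 and 0.203, a difference of -0.34 (SE 0.061, adjusted p = 2.92e-03). Without S100-high cells the difference of Gbp2 was -0.27. That call was lost with every gene that had a count and on the deposited log values. Igtp and Ifi47, both immunity-related GTPases, differed by -0.36 and -0.34. Gbp7 went the other way, with 0.606 and 0.565 counts per cell in B-MF versus 0.407 and 0.378 in Mo-MF. Both B-MF libraries lay above both Mo-MF libraries, and the difference of 0.48 (SE 0.058, adjusted p = 3.64e-04) was 1.39-fold. Gbp3 had 0.141 and 0.106 in B-MF against 0.138 and 0.129 in Mo-MF, the only tested member whose libraries overlapped, with a difference of -0.07 (adjusted p = 0.525). Over all tested genes the libraries did not overlap for 29.6% in the lower and 40% in the higher direction.

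Among the 5 remaining members 4 were lower in B-MF. Phf11d, a protein with a PHD finger induced by interferon, had 0.204 and 0.167 counts per cell in B-MF versus 0.448 and 0.443 in Mo-MF, a difference of -0.94 (SE 0.068, adjusted p = 1.85e-05). Slfn5 and Slfn8, of the Schlafen family of interferon-induced growth regulators, differed by -0.68 and -0.55. Trim30a, which restrains NF-kB signalling, had 1.77 and 1.74 against 2.10 and 2.05, and its small difference of -0.23 (SE 0.050, adjusted p = 7.17e-03) lost its call when either Mo-MF library was left out. Parp14, a mono-ADP-ribosyltransferase, had 1.84 and 1.76 against 1.95 and 1.97, a difference of -0.11 (adjusted p = 0.116).

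**Figure D2:**
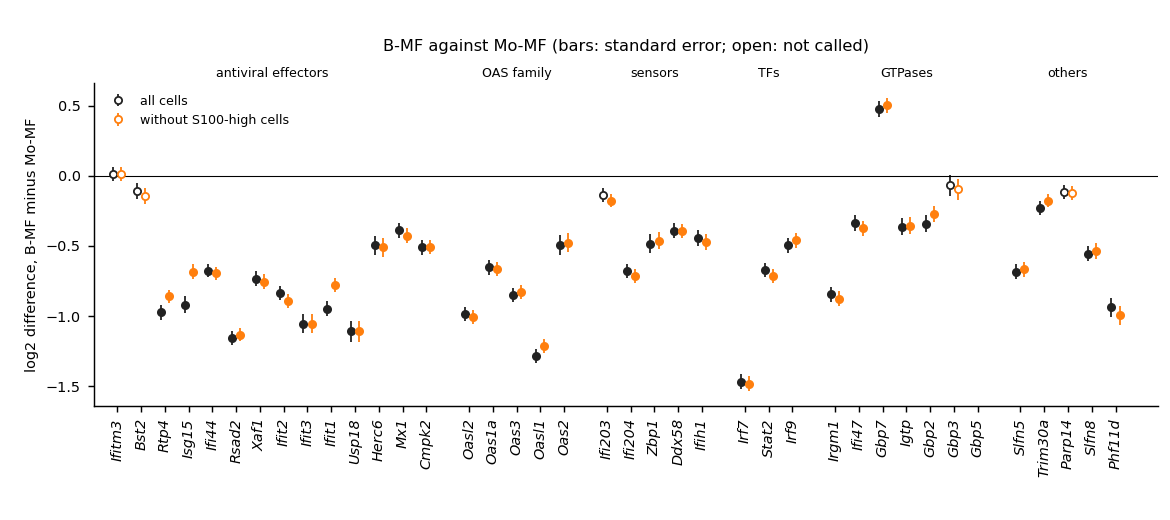
Difference in log2(mean + 0.1) of B-MF minus Mo-MF (y axis, with SE) for the 38 tested members. Values are for all cells (black) and without S100-high cells (orange), and open symbols were not called. Irf7 (-1.47) and Oasl1 (-1.29) lie furthest below 0, and Gbp7 (0.48) is the single called member above 0. Leaving out S100-high cells moves Isg15 from -0.92 to -0.68.

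Genes of the interferon pathway outside the 39 members were read from a list of 47 genes (interferons, receptors, signalling, sensing and targets of interferon gamma), of which 41 were listed in the culture table. The genes of this list named here and below were chosen after their values were seen. Of 28 tested, 9 were lower and 6 were higher in B-MF, beside 16.9% and 22.6% of all genes. The type I receptor chains were called higher in B-MF, with small differences. Ifnar1 had 1.33 and 1.21 in B-MF against 1.09 and 1.08 (difference 0.21, adjusted p = 0.0250), and Ifnar2 had 3.43 and 3.24 against 2.84 and 2.78 (difference 0.24, adjusted p = 8.79e-03). The calls of Ifnar1 and Ifnar2 were lost when either Mo-MF library was left out, and that of Ifnar1 also with a pseudocount of 0.01 and with every gene that had a count. Among sensors and their regulators, Dhx58, a partner of RIG-I and MDA5, differed by -0.44 and Adar, an RNA-editing enzyme, by -0.54. Tlr7, the endosomal receptor for single-stranded RNA, was higher in B-MF, with 0.8285 and 0.850 against 0.587 and 0.614 (difference 0.42, adjusted p = 3.72e-04). No interferon gene of the list was listed in the culture table.

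Taking the 39 genes as a score, the mean over members of log2(mean + 0.1), the B-MF libraries stood at -0.33 and -0.40 and the Mo-MF libraries at 0.23 and 0.20. Without S100-high cells the Mo-MF libraries stood at 0.22 and 0.19, and their S100-high cells alone at 0.24 and 0.19. The score of Mo-MF was therefore nearly the same in both kinds of cell, while single members differed between them. Isg15, Ifit1 and Rtp4 were higher in S100-high Mo-MF cells, and Bst2 (5.52 and 5.04 against 7.78 and 7.24), Phf11d (0.241 and 0.215 against 0.470 and 0.463) and Stat2 (0.586 and 0.684 against 1.004 and 0.977) were lower, in both libraries, though this was not tested. The summed level of 7 macrophage markers was 147 and 143 counts per cell in B-MF versus 92.6 and 91.9 in Mo-MF, that of 4 monocyte markers was 0.182 and 0.131 against 2.30 and 2.15 (1.84 and 1.73 without S100-high cells), and that of 5 B-cell markers was 0.102 in both B-MF libraries and 0.113 and 0.104 in Mo-MF. The part of these marker levels in the result was not tested.

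**Figure D3:**
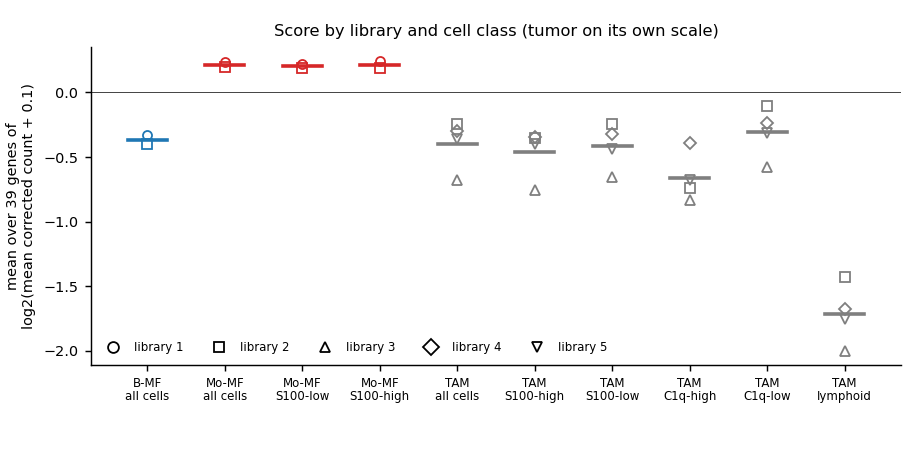
Score of the 39 members (mean of log2(mean + 0.1), y axis) by cell class, with 1 point for each library and a line at their mean, where the culture and tumor classes come from separately normalized tables. Both Mo-MF libraries (0.23 and 0.20) lie above both B-MF libraries (-0.33 and -0.40), and the lymphoid cells of the tumors have the lowest scores.

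The difference was also seen cell by cell. A B-MF had a count for a median of 15 and 14 of the 39 members in the 2 libraries, and a Mo-MF for 20 in both. At least 20 members were detected in 23.1% and 18.7% of B-MF and in 53.3% and 52.0% of Mo-MF. After every cell was thinned to 10000 counts, which left out no cell, the medians were 10 and 10 against 15 and 14, and 6.11% and 4.88% of B-MF against 19.98% and 19.7% of Mo-MF held at least 20 members. Mo-MF thus lay above B-MF in both libraries at equal corrected counts per cell, while raw depth is unknown and detected genes were not matched. Ifit1 was found in 13.1% and 13.4% of B-MF and 28.6% and 28.6% of Mo-MF, and after thinning in 8.48% and 8.45% against 19.2% and 18.4%. No cell type in these tables can be taken to lack these genes, so the share that free RNA alone would give is unknown.

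**Figure D4:**
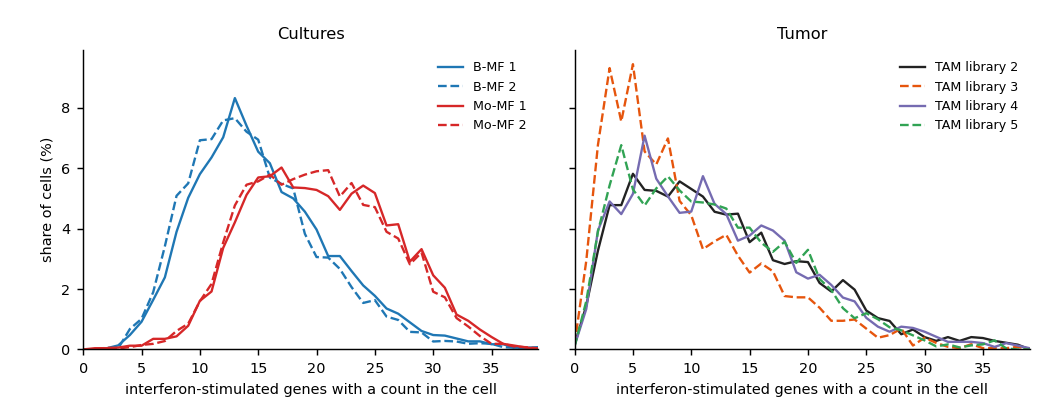
Share of cells (y axis, percent) by the number of the 39 members with at least 1 count in the cell (x axis), with 1 line per library and culture and tumor cells in separate panels. The Mo-MF lines center near 20 members and the B-MF lines near 15, while TAM library 3 lies to the left of the other TAM libraries.

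Most pairs of members were only weakly correlated between cells. Correlations were taken across the cells of a library on the natural log of 1 plus the corrected count. Over the 741 pairs of members, the median was 0.15 to 0.18 in the culture libraries and 0.21 to 0.24 in the TAM libraries. Such cells share their library and differ in depth, and low counts per cell also hold correlations down. The values therefore do not show whether members vary apart. The pairs with closer ties included Ifit2 with Ifit3 (0.52 in B-MF library 1 and 0.69 in TAM library 2) and Gbp2 with Gbp7 (0.54, 0.58 and 0.64 in TAM libraries 3, 4 and 5).

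In the tumor, the first comparison was between S100-high and other cells of the same library. The members went in both directions. Isg15, Rtp4, Gbp2 and Ifit1 were higher in S100-high cells, while Ifi203, Ifi204, Ifi44, Bst2, Slfn5 and Ifitm3 were lower, by up to 3.88-fold. In a fit with library as a block, 19 of 37 tested members were higher, 13 were lower and 5 were not called. Over all 6026 genes tested, 18.1% were higher and 71.6% were lower (89.7% in either direction), and the median difference was -0.52 against 0.25 over the members. S100-high cells held fewer genes, with a median of 1395 to 1447 per cell against 2423.5 to 2496.5, and after scaling each cell to 10000 counts outside S100a8 and S100a9 the median over all genes moved to -0.37 and that over the members to 0.38. The median over the members was 0.10 with a pseudocount of 1 and 0.027 on the mean of the deposited log values. Between 237 and 284 cells of a library lay near the cut, at 50 to 199 counts of S100a8 plus S100a9. The 4 monocyte markers summed to 6.68 to 8.19 counts per cell in S100-high cells and 19.0 to 23.2 in the others. Macrophage markers summed to 5.78 to 10.7 against 10.2 to 25.7, and dendritic cell markers to 0.0323 to 0.144 against 0.877 to 1.82. B-cell markers summed to 0.0499 to 0.133 against 0.122 to 2.68. The others included the cells with B-cell or T-cell genes (24, 56, 92 and 123 in libraries 2 to 5). The part of these cell types in the result was not tested.

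Isg15 had 12.3, 6.81, 9.63 and 10.99 counts per cell in the S100-high cells of TAM libraries 2 to 5, and 5.38, 3.03, 4.33 and 4.09 in the other cells. It was higher in the S100-high cells of every library, by 1.22 (SE 0.059, adjusted p = 4.27e-08). Rtp4 had 1.45, 0.979, 1.17 and 1.45 against 0.681, 0.525, 0.642 and 0.618, a difference of 0.92 (adjusted p = 5.70e-07). Gbp2 had 3.402, 2.01, 3.67 and 3.90 against 1.86, 1.16, 1.77 and 1.89, a difference of 0.90 (adjusted p = 3.33e-07). For Rtp4 and Gbp2 each S100-high value likewise exceeded each value of the other cells. Ifit1 had 0.572, 0.417, 0.581 and 0.423 against 0.344, 0.195, 0.283 and 0.169, a difference of 0.80 (adjusted p = 1.07e-06). Of the oligoadenylate synthetase genes 4 of 5 were higher, led by Oas3 (0.59), and of the GTPases 5 of 7 were higher, with Gbp7 also at 0.59 (adjusted p = 2.84e-06). Without the library block 17 members were higher and 10 were lower, and the GTPases Igtp and Ifi47 were among those that lost their call.

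The DNA sensors Ifi203 and Ifi204 differed most. Ifi203 had 0.377, 0.282, 0.391 and 0.270 counts per cell in S100-high cells and 1.62, 1.36, 1.60 and 1.66 in the others, and Ifi204 had 0.384, 0.248, 0.399 and 0.272 against 1.69, 1.15, 1.48 and 1.58. Neither gene overlapped between the classes in any library, and they were lower in S100-high cells by -1.96 (SE 0.075, adjusted p = 1.46e-08) for Ifi203 and -1.89 (SE 0.076, adjusted p = 1.80e-08) for Ifi204. The 2 genes also went together across cells, with a correlation of 0.58 to 0.64 in the TAM libraries. Ifi44, which forms microtubule-like structures and slows cell growth, had 0.333, 0.205, 0.408 and 0.250 against 1.47, 0.837, 1.19 and 1.09, a difference of -1.65 (SE 0.080, adjusted p = 4.20e-08). Bst2 had 0.525, 0.424, 0.615 and 0.498 against 1.32, 0.896, 1.23 and 1.06, a difference of -0.99 (SE 0.059, adjusted p = 1.59e-07), and the classes did not overlap for either. Slfn5 had 0.851, 0.685, 0.859 and 0.852 against 1.41, 1.28, 1.38 and 1.24, a difference of -0.65 (adjusted p = 3.42e-06). Ifitm3 had 15.1, 13.4, 15.6 and 14.3 against 24.7, 19.9, 20.9 and 22.7, a difference of -0.59 (adjusted p = 6.72e-06), and for both genes the S100-high cells lay lower in every library without overlap.

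Irf7, furthest apart between the cultured macrophages, was close in both classes of tumor cells, with 1.20, 0.897, 1.19 and 1.21 counts per cell in S100-high cells and 1.44, 0.915, 1.20 and 1.12 in the others. The classes overlapped, and the difference was -0.04 (adjusted p = 0.505). Ifit2 had 0.180, 0.207, 0.245 and 0.194 against 0.447, 0.234, 0.415 and 0.181, and its call (-0.40, SE 0.14, adjusted p = 0.0228) was lost in 8 of the alternatives, with library 5 pointing the other way. The mean score over the 39 genes was lower in S100-high cells (-0.35, -0.75, -0.34 and -0.40) than in the others (-0.24, -0.65, -0.32 and -0.44) in 3 of 4 libraries. The median difference had the opposite sign. It is over the 37 tested members and leaves out Mx1 and Phf11d, but it was also positive (0.16) over all 39 members when every gene with a count was tested. The order of the class means of the score depends on the setting. They were -0.46 and -0.41 in the main setting, 0.861 and 0.857 with a pseudocount of 1, and -0.273 and -0.274 over members with a mean of at least 0.1 in every library.

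Of 31 tested pathway genes outside the members 6 were higher and 20 were lower in S100-high cells, shares near those of all genes (18.1% and 71.6%). Irf1, a factor induced by interferon gamma, had 4.45, 2.84, 4.71 and 4.85 counts per cell against 2.16, 1.66, 2.47 and 2.33, a difference of 0.92 (adjusted p = 2.61e-07). Irf8, which directs monocyte and dendritic cell fate, had 0.556, 0.321, 0.507 and 0.392 against 2.57, 1.91, 2.43 and 2.66, a difference of -2.21 (adjusted p = 1.20e-08). These factors of 1 family thus lay in opposite directions in all 4 libraries. Cxcl9, a chemokine for T cells, differed by -1.22 (adjusted p = 1.46e-06), Gbp4 by -1.41, Ifngr2, a chain of the interferon gamma receptor, by -0.65, and Tmem173, which encodes the adaptor STING, by -1.51. Of the 9 tested targets of interferon gamma outside the members 7 were lower, again beside 71.6% of all genes. The 2 higher ones were Nos2, the inducible nitric oxide synthase (0.99, adjusted p = 6.82e-07), and Irgm2, an immunity-related GTPase (0.45, adjusted p = 5.06e-04), each in 4 of 4 libraries, and Irgm2 lost its call without the library block.

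The second comparison in the tumor was within the cells that were neither S100-high nor lymphoid. C1q-high cells carried at least 10 counts of C1qa, C1qb and C1qc, complement genes of mature macrophages. The summed level of 7 macrophage markers was 58.1 to 78.1 counts per cell in them and 6.57 to 8.22 in C1q-low cells. These 7 include C1qa, C1qb and C1qc themselves, so the cut fixed part of this gap, and its size without them is not given. Other marker lists moved with this split, since 4 monocyte markers summed to 6.33 to 9.79 in C1q-high and 23.4 to 28.1 in C1q-low cells, and 4 dendritic cell markers to 0.00781 to 0.138 and 1.09 to 1.80. Their part in the results below was not tested. There were 442, 58, 118 and 128 C1q-high cells in libraries 2 to 5, so values of library 3 rest on few cells. Members were mostly lower in C1q-high cells, with Rsad2, Gbp5, Slfn5 and Isg15 furthest, while Phf11d and Bst2 were higher. Of 39 members 22 were lower, 2 were higher and 15 were not called, beside 25.2% lower and 18.4% higher (43.7% in either direction) of 6680 genes, and the median was -0.38 against -0.06 over all genes. Without library 2, 15 were lower and 4 were higher.

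Rsad2 had 0.898, 0.5, 1.28 and 0.742 counts per cell in C1q-high cells of libraries 2 to 5 and 2.95, 2.15, 2.63 and 1.88 in C1q-low cells. The classes did not overlap, and the difference was -1.43 (SE 0.15, adjusted p = 7.66e-05), or 2.70-fold. Isg15 had 2.88, 1.98, 2.97 and 2.72 against 6.32, 3.33, 4.88 and 4.72, a difference of -0.83 (SE 0.11, adjusted p = 2.62e-04). Zbp1 had 0.887, 0.828, 1.04 and 0.898 against 1.74, 1.10, 1.62 and 1.61, a difference of -0.66 (adjusted p = 1.19e-03). For Isg15 and Zbp1, too, each C1q-high value lay under each C1q-low value. Cmpk2, a nucleotide kinase next to Rsad2 on chromosome 12, had 0.0317, 0.0690, 0.153 and 0.0312 against 0.186, 0.145, 0.194 and 0.126, a difference of -0.66. Slfn5 had 0.545, 1.22, 0.864 and 0.719 against 1.73, 1.37, 1.57 and 1.45, a difference of -0.84 (adjusted p = 4.31e-03). The calls of Cmpk2 and Slfn5 were lost with every gene that had a count, and that of Cmpk2 also on the deposited log values.

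All 7 GTPases were lower in C1q-high cells. Gbp5 had 0.405, 0.172, 0.958 and 0.930 counts per cell against 1.26, 0.701, 1.29 and 1.34, a difference of -0.97 (SE 0.19, adjusted p = 3.03e-03). Gbp2 had 0.898, 0.966, 1.16 and 1.13 against 2.21, 1.28, 2.02 and 2.24, a difference of -0.81 (adjusted p = 1.05e-03). The call of Gbp5 was lost without the library block and with every gene that had a count. Within each library the C1q-high value was the lower one for both genes, while the C1q-low value of Gbp5 in library 3 fell among the C1q-high values. Ifi47 had 0.584, 0.483, 0.898 and 0.688 against 1.47, 0.639, 1.27 and 1.42, a difference of -0.74. Irgm1 had 0.217, 0.207, 0.466 and 0.453 against 0.592, 0.394, 0.762 and 0.686, a difference of -0.73 (adjusted p = 9.66e-04). Igtp (-0.49), Gbp7 (-0.38) and Gbp3 (-0.29) had smaller differences, and each lost its call in 4 to 7 of the alternatives.

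The 2 members that were higher in C1q-high cells were so in all 4 libraries. Phf11d had 0.235, 0.310, 0.263 and 0.227 counts per cell against 0.205, 0.117, 0.116 and 0.101, a difference of 0.63 (adjusted p = 3.88e-03). Bst2 had 1.82, 1.62, 1.49 and 1.56 against 1.16, 0.891, 1.27 and 1.08, a difference of 0.53 (adjusted p = 4.19e-03). Neither gene overlapped between the classes. Irf7 had 1.35, 1.48, 1.68 and 1.34 against 1.48, 0.929, 1.21 and 1.14, higher in 3 of 4 libraries, and was not called (0.29, adjusted p = 0.0952). None of the 3 transcription factors among the members was called.

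**Figure D5:**
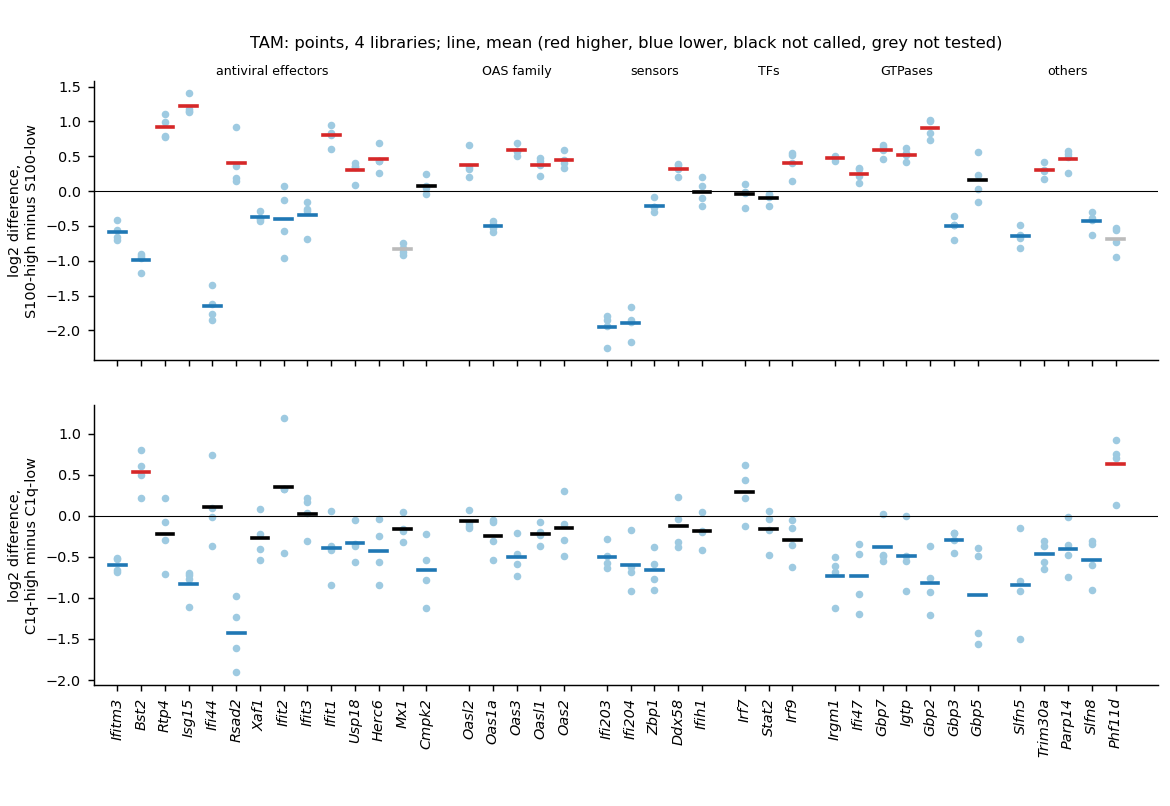
Difference in log2(mean + 0.1) (y axis) for each member in the 4 TAM libraries (points) and their mean (line). The upper panel shows S100-high minus S100-low cells and the lower panel C1q-high minus C1q-low cells. Lines are red (called higher), blue (called lower), black (not called) or grey (not tested). Isg15 lies above 0 in the upper panel (1.22) and below 0 in the lower panel (-0.83), and Bst2 does the opposite (-0.99 and 0.53).

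Of the 9 tested targets of interferon gamma outside the members, 3 were higher and 2 were lower in C1q-high cells, beside 18.4% and 25.2% of all genes. Cxcl9 had 3.995, 3, 3.71 and 6.23 counts per cell in C1q-high cells and 1.41, 0.587, 1.27 and 1.02 in C1q-low cells, a difference of 1.90 (adjusted p = 4.14e-05), or 3.73-fold. Iigp1, an immunity-related GTPase, had 0.645, 0.172, 0.619 and 0.672 against 0.152, 0.0488, 0.246 and 0.168, a difference of 1.25 (adjusted p = 8.94e-05). Both were higher in C1q-high cells of every library, as was Gbp8 (difference 0.83). The lower ones were Nos2, with 0.292, 0.414, 0.424 and 0.5 against 0.859, 1.44, 1.23 and 1.09 (difference -1.30, adjusted p = 3.33e-05), and Irgm2 (-0.38, adjusted p = 0.0372), whose call was lost in 8 of the alternatives. Ifngr1, the ligand-binding chain of the interferon gamma receptor, had 0.733, 1.21, 0.856 and 0.906 against 1.77, 2.22, 2.09 and 2.26, a difference of -1.11 (adjusted p = 5.39e-05). Socs1 and Socs3, which shut off cytokine receptors, differed by -1.11 and -1.03. Of the 32 pathway genes tested 5 were higher and 13 were lower.

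TAM library 3 had the lowest score, -0.68, against -0.24, -0.30 and -0.36 in libraries 2, 4 and 5. Gbp5 had 0.565 counts per cell in library 3 against 1.28, 1.27 and 1.19 in libraries 2, 4 and 5, and Ifi47 had 0.627 against 1.33, 1.33 and 1.43. Library 3 was thus well below the others for these GTPases, and it also held the largest share of S100-high cells (67.7%). Within S100-high cells Gbp5 was 0.540 in library 3 and 1.57, 1.37 and 1.20 in the others, and within S100-low cells 0.617 against 1.03, 1.15 and 1.17, so library 3 was lowest within each class as well. Each of the 4 libraries is 1 sample of tumor cells, and the cause was not tested.

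Interferon gamma itself was the only interferon of the list in the tumor table. Ifng counts came almost wholly from cells with B-cell or T-cell genes, at 2.83, 0, 0.315 and 0.220 counts per cell in libraries 2 to 5. In library 2 the 10% of such cells with the most Ifng counts held 76.5% of them, so the mean of 2.83 rests on few cells. Ifng was detected in 8 of 24 such cells in library 2 (33.3%, exact 95% binomial interval 15.6% to 55.3%), 5 of 92 in library 4 (5.43%, 1.79% to 12.2%) and 5 in library 5 (4.07%, 1.33% to 9.23%). It was found in 0 of 56 such cells of library 3 and in no other cell of that library. The exact interval then reaches 6.38% and the floor for a count of 0, taken as 3 of 56 cells, is 5.36%, which limit the share of cells with a count and not of cells that express Ifng. These intervals cover counting error only. The make-up of these cells also differed between libraries. In libraries 2 to 5 their T and NK cell markers summed to 28.6, 2.79, 9.29 and 6.63 counts per cell. Their B-cell markers summed to 5.38, 24.5, 19.4 and 24.0. The shares with Ifng were not matched for this, and its part in them was not tested. In these lymphoid cells the members were low, with scores of -1.43, -1.997, -1.67 and -1.75.

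The last question was whether the promoters of the members were open in the B-cell precursors. A promoter was scored as open where a deposited peak overlapped the 1 kb on either side of the annotated start of the gene. In all 12 libraries, 30 of the 39 members had such a peak, beside 47.8% of 21911 protein-coding genes. For Gbp5, 1 of these members, the annotated start (142493978) lay more than 1 kb from the promoter stretch printed above, which began at 142496757. Its window thus did not hold that stretch. Stat2 had the highest enrichment of the members, 27.7- to 36.8-fold over background as the peak caller gave it. Oasl1 and Rtp4 had no peak in any library, as did 38.9% of all genes. Rtp4 gained one in all 12 libraries when any annotated transcript start was allowed, so that with this setting Oasl1 was the 1 member without a peak.

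The remaining 7 members had a peak in some libraries only. For Isg15 it was found in 2 of 3 BM CSF1R+, none of the BM CSF1R-, 2 of 3 spleen CSF1R+ and 1 of 3 spleen CSF1R- libraries, at 3.03- to 3.94-fold. Ifi204 had a peak in all 6 BM libraries and 1 of 3 libraries in each spleen group, and Oas1a in 5 of 6 BM libraries and 1 of 6 spleen libraries. Ifi44 had a peak in 4 BM libraries and no spleen library, and Ifitm3 in 2 BM libraries, at 3.43- and 3.48-fold. Phf11d had a peak in all 6 spleen libraries and 3 of 6 BM libraries, and Slfn5 in 11 libraries. Peaks were called in each library separately, with 43407 to 76530 per library, and the weakest peaks lay near the limit of calling. No member had a peak in all 3 CSF1R+ and no CSF1R- libraries of a tissue or the reverse, a pattern held by 0.0776% and 0.0502% of genes in BM and 0.0867% and 0% in spleen. No member had a peak in all 6 libraries of 1 tissue and none of the other, a pattern of 3.19% (BM) and 0.0958% (spleen) of genes.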

How the data were processed

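Per the labels and the study's methods, single-cell libraries were made with the 10x Chromium system, aligned by Cell Ranger with STAR to mm10 and normalized with SCTransform. The authors deposited the natural log of 1 plus the corrected count for each cell and gene. All values above 0 turned back into whole numbers (tolerance 1e-06), 77097456 in the culture table and 21074130 in the tumor table, and these were averaged per library, the unit of replication. Corrected counts are not raw counts, so no count model was used. log2(mean + 0.1) of genes with a mean of at least 0.1 was fitted in limma 3.58.1 (R 4.3.3), with library as a block within TAM, and p-values were adjusted by Benjamini-Hochberg over all genes of a fit. The fold changes understate those of low genes. The script was tested on simulated data. Lymphoid cells had Cd79a plus Cd79b of at least 5 or Cd3e, Cd3g and Trbc2 of at least 3 counts.

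For ATAC-seq, per the labels, reads were trimmed with cutadapt, mapped to mm10 with BWA, and peaks were called per library with MACS2. The deposited peak lists give a fold enrichment over background and −log10 of the q-value. Starts came from GENCODE vM21. The pathway and member lists, classes and tests were chosen with earlier results of these data known. Members with the largest differences among those called (up to 10 per comparison) are given in full, with others named after their values were seen. Alternatives were other pseudocounts, no filter, means of the deposited log values, scaling, other cuts, no block or a replicate block, and leaving out each library. Tumor and culture tables were not tested against each other. A joined list of the authors' peaks was not used. Python 3.11.15 with pandas 2.3.3, numpy 2.4.6, scipy 1.17.1, pysam 0.24.0 and matplotlib 3.10.9 was used.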

Additional observations from a re-analysis of the deposited data

Results flagged for a closer look

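TAM library 3 stood apart from the 3 others at the low end, by Dixon's criterion for 4 samples, for Gbp3 (0.307 counts per cell), Gbp5 (0.565), Herc6 (0.308) and Ifi47 (0.627). These were 4 of the 40 values examined this way, and chance flags about 1 in 20 groups.

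For 8 of the 39 members, S100-high and S100-low cells differed in 1 direction in both Mo-MF libraries and in the other direction in all 4 TAM libraries. The difference between the 2 tables was not tested. The share of all genes with such a pattern was not counted, so the count is no result about the members as a set. Lower in the S100-high cells of Mo-MF and higher in those of TAM (mean log2 difference in Mo-MF, then in TAM) were Herc6 (-0.17 and 0.45), Oasl2 (-0.29 and 0.38), Irgm1 (-0.38 and 0.48), Ifi47 (-0.48 and 0.25) and Parp14 (-0.11 and 0.46). Higher in the S100-high cells of Mo-MF and lower in those of TAM were Zbp1 (0.21 and -0.21), Slfn5 (0.17 and -0.65) and Slfn8 (0.17 and -0.43). With counts scaled without S100a8 and S100a9 the TAM mean of Zbp1 was 0.049, so that its direction depends on the scaling, while the TAM means of the 7 others kept their sign. The Mo-MF differences were not scaled in this way. S100-high Mo-MF cells held a median of 17453 and 17419.5 counts, S100a8 and S100a9 included, and the other cells 19519.5 and 19413. The small differences in Mo-MF may therefore depend on the scaling too.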

How the results depend on the processing

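Over all alternatives, single-gene differences kept their direction and side of the threshold 1935 times, lost the call 94 times, gained it 37 times and reversed 19 times, and 227 counts, medians and scores stayed close while 40 moved. For B-MF against Mo-MF, 31 to 36 members were lower when a library was left out (30 to 36 without S100-high cells), although the calls over all genes ranged from 1112 to 3855 higher and 863 to 2950 lower (1040 to 3597 and 848 to 3264 without S100-high cells). The higher counts fell without Mo-MF replicate 1 (1128) or 2 (1112) and rose without B-MF replicate 2 (3855), and the lower counts fell without Mo-MF replicate 1 (863) and rose without B-MF replicate 1 (2950). The lone library left in a group is then assumed to vary like the others. The member median of -0.60 became -0.71 with a pseudocount of 0.01, -0.26 with 1, -0.55 with every gene that had a count and -0.21 on the mean of the deposited log values (-0.71, -0.25, -0.54 and -0.21 without S100-high cells), and 2 members were higher with every gene in both fits. With a library left out Gbp3 ranged from -0.18 to 0.044 (without S100-high cells -0.20 to 0.016), turning positive without B-MF replicate 2, and Ifitm3 reversed on the deposited log values (-0.0057 and -0.0079).

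Over 8633 genes, the difference of replicate 1 minus 2 in B-MF correlated by 0.126 with the same difference in Mo-MF. Nothing says that libraries with the same replicate number pair. With a replicate block 1 member was higher and 32 were lower (1 and 34 without S100-high cells), and the calls over all genes were 2238 higher and 1670 lower (2093 and 1777).

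For S100-high against S100-low TAM, the median over members of 0.25 became 0.16 with every gene, 0.10 with a pseudocount of 1, 0.027 on the deposited log values and 0.38 with scaling, which gave 1643 higher genes, and every gene gave 8573 lower ones. Under scaling Ifih1 (0.21), Irf7 (0.21), Stat2 (0.096) and Zbp1 (0.049) turned positive, and Zbp1 had been called lower. Ifih1 also reversed with a cut at 50 (0.087) and without library 3 (0.063) or 4 (0.025), over a range of -0.078 to 0.063, Irf7 without library 2 (range -0.091 to 0.020), and Gbp5 with a cut at 200 (-0.094) and on the log values (-0.020). For C1q-high against C1q-low, the median of -0.38 became -0.12 with a pseudocount of 1 and -0.083 on the log values, 13 members were lower with every gene, 15 without the block and 15 to 20 without a library, 2 to 4 were higher without a library (4 without library 2), and the lower calls over all genes ranged from 1118 (without library 2) to 1921. Ifi44 reversed with a C1q cut of 5 (-0.039) and without library 3 (range -0.096 to 0.27), and Ifit3 with that cut (-0.11) and without library 4 (-0.020) or 5 (-0.035), over a range of -0.035 to 0.14. The cause was not tested.

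With a pseudocount of 1 the mean scores were 0.90 for B-MF, 1.20 for Mo-MF, 1.19 for Mo-MF without S100-high cells and 0.87 for TAM. With members at a mean of at least 0.1 in every library they were -0.31 for B-MF, 0.30 for Mo-MF and 0.29 for Mo-MF without S100-high cells. At a q-value score of at least 10, 1 member (Ifi204) had a peak in all 6 BM and no spleen library, and with any transcript start, an alternative chosen after seeing the data, 1 member had no peak.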

Other observations

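In the cells of the tumors that carried B-cell or T-cell genes, Isg15 had 1.33, 0.643, 1.10 and 1.04 counts per cell in TAM libraries 2 to 5, Ifi203 had 0.917, 1.59, 1.13 and 1.62, and Ifitm3 had 2.62, 2.38, 2.37 and 1.53. Compared with the S100-high cells of the same libraries, Isg15 and Ifitm3 were lower in every library and Ifi203 was higher. These classes were not compared by a test.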
